A study of Mus musculus with 15 samples.

Results

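The 55 genes described here encode proteins that carry cells through G2 and mitosis: CDK1 and its cyclins, mitotic kinases, the spindle checkpoint, the anaphase-promoting machinery, kinetochore and spindle proteins, condensin and cytokinesis factors. They were taken by gene symbol, and all 55 were found among the 25639 symbols of the count table. All 55 also passed the filter on low counts, which left 12401 genes for testing, and the lowest level of any of them in any library was 6.70 CPM (counts scaled to library size after edgeR's TMM normalization).

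Gene expression was measured by RNA sequencing of wild-type RAW264.7, an established mouse macrophage-like line that divides in culture. One group was left untreated and the others were given the peptide LCCL, at 1 µg or at 10 µg, and harvested after 6 h or 24 h, with 3 libraries per group and 15 in all. Doses are labelled as amounts with no volume, there is no vehicle group, the untreated cells carry no harvest time, and all libraries are labelled batch 1. The labels do not say that libraries of a group came from separate cultures, so p-values cover the spread among the libraries, which may be technical. Library totals ran from 19085148 to 22434642 counts, which limits the precision of each count. Of 8 macrophage markers, 7 passed the filter, and Mertk had at most 3 counts in any library. Their summed level, most of it Lyz2, was 12711 to 13214 CPM in untreated libraries and 9828 to 10858 CPM at 10 µg and 24 h, where 4 of the 7 rose and 3 fell (median 0.25, range -0.77 to 1.19 on the log2 scale). The summed markers of T cells, B cells, neutrophils, fibroblasts and epithelium each stayed at or below 1.17 CPM in all libraries. The mitochondrially encoded share was 5.77% to 6.55%.

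Entry into mitosis is driven by CDK1 bound to cyclin A or cyclin B, which CDC25 phosphatases switch on. Aurora and Polo-like kinases then build the spindle, the spindle checkpoint holds anaphase until kinetochores are attached, and the anaphase-promoting complex destroys cyclin B and securin so that separase can release the sister chromatids. Transcripts of many of these genes are low in resting cells and peak in G2 and mitosis, when the MuvB complex with B-MYB and FOXM1 acts at promoters that carry CCAAT boxes and the cell cycle genes homology region (CHR). In bulk RNA, fewer cells in G2 and mitosis and less transcript per cell cannot be told apart.

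The promoter letters of these genes are shown first. RefSeq windows of 300 bases, 250 before and 50 after the annotated start, were found for 46 of the 55 genes (51 windows, GRCm38.p6, an older build than the GRCm39 named for the counts). The letters TTTGAA or TTCGAA, the CHR core, stood on either strand in 38 of the 51 windows (74.5%), against 19.2% of 32851 windows of all genes. The letters CCAAT stood on either strand in 39 (76.5%), against 37.4%. Both were in 34 (66.7%), against 7.52%. Of the genes with a window, 35 had the CHR letters and a median log2 fold change of -0.89 at 10 µg and 24 h, and 11 had none and a median of -0.86. A match is a description of the letters, not of a bound site.

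The windows of 5 genes are printed 5′ to 3′ on the strand that the RefSeq table gives, with CHR letters and CCAAT letters of either strand in capitals. Cdk1 (chr10:69352863-69353162, minus strand) had the lowest log2 fold change at 10 µg and 24 h. Ube2c (chr2:164769679-164769978, plus strand) had the 1 call at 10 µg and 6 h that held without each library in turn. Mki67 (chr7:135716330-135716629, minus strand) is the gene of the proliferation marker Ki-67. Plk4 (chr3:40799701-40800000, plus strand) did not pass the test between the doses at 24 h. Cdc25b (chr2:131186698-131186997, plus strand) had the smallest change at 10 µg and 24 h.
Cdk1: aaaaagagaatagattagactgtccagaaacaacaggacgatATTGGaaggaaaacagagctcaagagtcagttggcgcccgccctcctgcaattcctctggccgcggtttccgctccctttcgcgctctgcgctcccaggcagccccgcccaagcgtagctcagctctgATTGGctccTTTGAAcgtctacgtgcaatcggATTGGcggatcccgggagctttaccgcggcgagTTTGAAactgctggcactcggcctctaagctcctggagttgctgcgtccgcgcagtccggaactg
Ube2c: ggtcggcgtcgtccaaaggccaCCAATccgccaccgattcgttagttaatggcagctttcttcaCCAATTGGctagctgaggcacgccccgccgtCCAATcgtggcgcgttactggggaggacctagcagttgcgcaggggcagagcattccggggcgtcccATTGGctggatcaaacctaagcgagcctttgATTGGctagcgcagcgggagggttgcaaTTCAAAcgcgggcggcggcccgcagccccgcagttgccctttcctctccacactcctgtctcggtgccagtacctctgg
Mki67: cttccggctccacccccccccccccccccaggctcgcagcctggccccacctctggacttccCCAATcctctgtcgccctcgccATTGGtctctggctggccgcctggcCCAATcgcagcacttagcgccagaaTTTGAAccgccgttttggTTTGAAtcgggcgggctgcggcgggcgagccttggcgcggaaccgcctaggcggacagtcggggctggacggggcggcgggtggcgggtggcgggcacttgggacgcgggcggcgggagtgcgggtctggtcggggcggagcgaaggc
Plk4: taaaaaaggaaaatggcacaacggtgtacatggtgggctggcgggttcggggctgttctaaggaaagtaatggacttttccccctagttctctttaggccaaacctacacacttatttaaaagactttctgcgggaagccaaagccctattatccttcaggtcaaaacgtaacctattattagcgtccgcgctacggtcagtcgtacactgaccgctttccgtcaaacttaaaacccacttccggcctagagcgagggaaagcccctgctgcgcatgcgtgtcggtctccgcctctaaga
Cdc25b: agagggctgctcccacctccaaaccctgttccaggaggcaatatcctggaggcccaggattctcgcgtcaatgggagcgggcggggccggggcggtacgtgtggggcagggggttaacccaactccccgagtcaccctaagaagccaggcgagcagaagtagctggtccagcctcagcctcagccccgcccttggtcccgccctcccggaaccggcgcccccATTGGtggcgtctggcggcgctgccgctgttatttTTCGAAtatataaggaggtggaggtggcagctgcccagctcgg
The Cdk1 window held 2 CHR matches, centred at positions -68 and -12 from the start, and 3 CCAAT matches. The Ube2c window held 1 CHR match at position -26 and 6 CCAAT matches. The Mki67 window held 2 CHR matches at positions -113 and -95. The Cdc25b window held 1 match to TTCGAA at position 10 and 1 CCAAT match, and the Plk4 window held neither motif. Windows of Mad2l1, Pttg1, Birc5, Nuf2, Kif18a, Nusap1 and Ncaph also held neither, and these genes passed between the doses at 24 h. Bub3 and Spc25, which like Plk4 did not pass there, had both motifs. A link between the letters and the dose effect was not tested. Bases just after the start were found in the sense direction in a GENCODE M21 transcript for Cdk1, Ube2c and Cdc25b, and not for Mki67 and Plk4. No match says only that the letters are not in that window.

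The summed level of the 55 genes was 8554 ± 117 CPM in untreated cells (SD, n = 3), 8346 ± 85.7 CPM at 1 µg and 6 h, 7685 ± 71.3 CPM at 10 µg and 6 h, 6192 ± 425 CPM at 1 µg and 24 h, and 4423 ± 297 CPM at 10 µg and 24 h. Abundant genes weigh most in this sum: Mki67 alone had a mean of 1431 CPM at 1 µg and 6 h. Rises and falls are those with an adjusted p under 0.05 in edgeR's quasi-likelihood test with Benjamini-Hochberg adjustment over all 12401 genes, and changes are log2 fold changes ± SE. The SE was calculated back from the test, as the size of the change over the square root of its F statistic. At 1 µg and 6 h, 0 of the 55 passed, as did 0% of all genes; DESeq2 also called 0, and 2 of the 55 had an unadjusted p under 0.05. At 10 µg and 6 h, 13 fell and 0 rose, where 1.86% of all genes fell and 4.09% rose. After 24 h of 1 µg, 51 fell and 0 rose, where 31% of all genes fell and 30.8% rose. After 24 h of 10 µg, all 55 fell, where 34.9% of all genes fell and 35.4% rose. The median of the 55 was -0.03, -0.16, -0.44 and -0.89 in these 4 comparisons, beside 0.00, 0.00, 0.01 and 0.01 over all genes. These 4 comparisons share the untreated libraries. All 3 treated libraries lay below all 3 untreated ones for 8, 38, 51 and 55 of the 55 genes, where 5.32%, 13.3%, 32.5% and 36% of all genes did so. Falls of at least 2-fold were seen for 16 of the 55 at 10 µg and 24 h, where 5.15% of all genes fell that far.

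**Figure D1:**
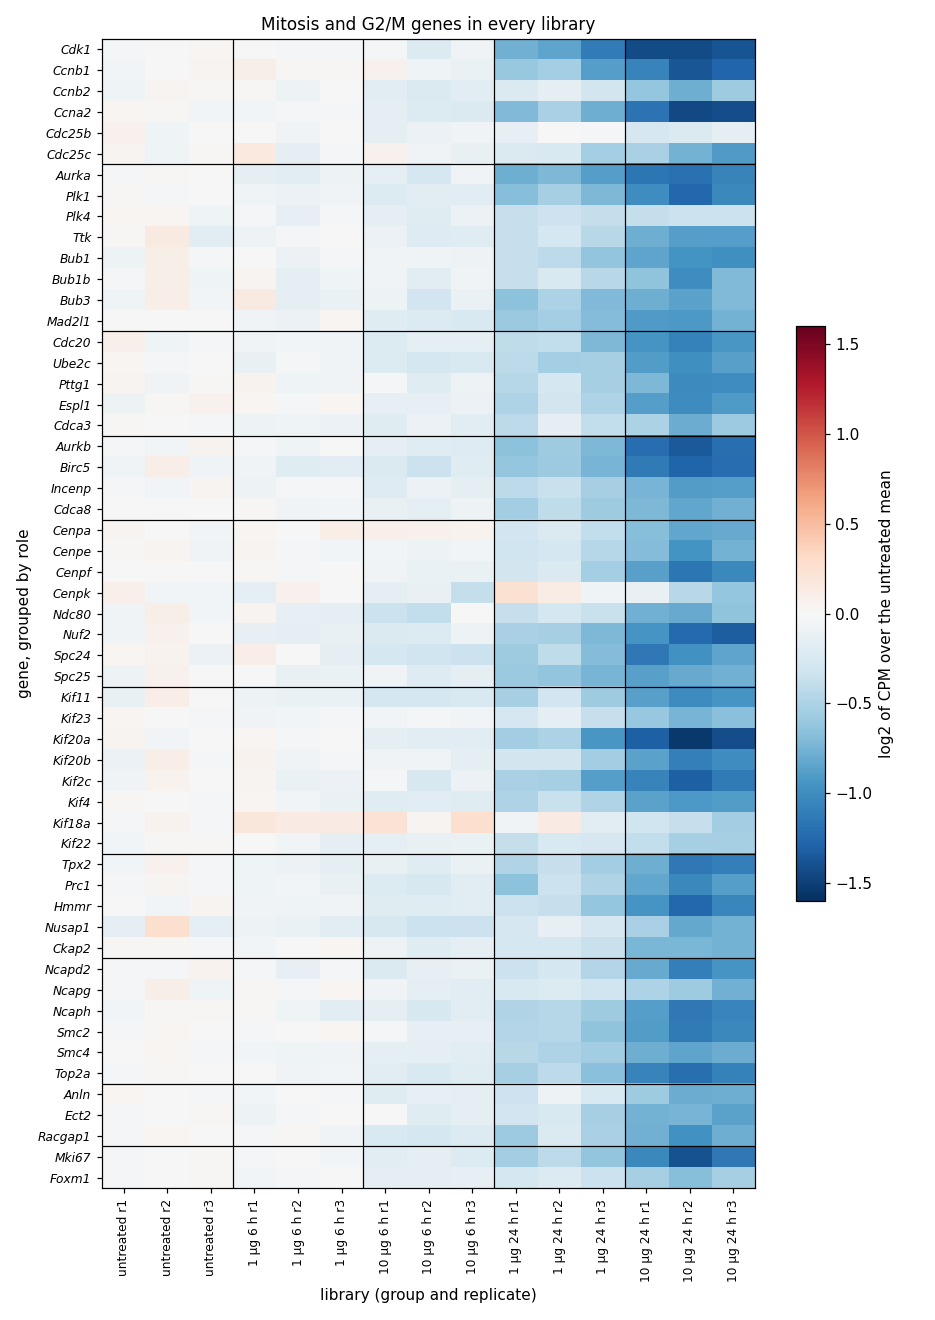
Level of each of the 55 genes (rows, grouped by role between black lines) in each of the 15 libraries (columns), as log2 of CPM over the untreated mean, blue for lower and red for higher. The 10 µg 24 h libraries are blue in nearly all rows, the 1 µg 24 h libraries paler, and the 6 h libraries close to the untreated ones.

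Within the 24 h groups, single libraries were low or high for most of the genes. In the 1 µg 24 h group, replicate 3 was the lowest library for 44 of the 55 genes and replicate 2 the highest for 45. At 10 µg and 24 h, replicate 2 was the lowest for 41 and replicate 1 the highest for 39. The 55 genes of a library share that library and are not separate measurements. Without replicate 3, the 1 µg 24 h median was -0.40 and 51 genes fell, and without replicate 2 it was -0.50 and 52 fell. Without replicate 2, the 10 µg 24 h median was -0.85 and all 55 fell.

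The CDK1 group holds the kinase, its cyclins and the CDC25 phosphatases. All 6 fell at 10 µg and 24 h, where 34.9% of all genes fell, and 5 at 1 µg and 24 h, where 31% fell. Values are given in the order of replicates 1 to 3, and where a time has a value for each dose, that of 1 µg stands before that of 10 µg. Cdk1, the kinase that drives entry into mitosis, was at 142, 144 and 148 CPM in untreated libraries, 144, 143 and 142 CPM at 1 µg and 6 h, 141, 125 and 139 CPM at 10 µg and 6 h, 85.1, 80.3 and 66.5 CPM at 1 µg and 24 h and 53.4, 53.5 and 55.5 CPM at 10 µg and 24 h. The 24 h libraries of each dose lay below all untreated libraries and the doses did not overlap. Its change was -0.90 ± 0.06 at 1 µg and 24 h (adjusted p = 2.18e-11) and -1.42 ± 0.07 at 10 µg and 24 h (adjusted p = 3.43e-15), a level 62.6% lower. Ccna2, the cyclin A that partners CDK1 and CDK2, stood at 339.7, 339 and 323 CPM untreated, 325, 329 and 326 CPM and 300.5, 288 and 285 CPM at 6 h of 1 µg and 10 µg, and 204, 233 and 195 CPM and 147, 123 and 125 CPM at 24 h of the same doses. It changed by -0.66 and -1.34 on the log2 scale at 24 h. Ccnb1, the main mitotic cyclin B, gave 84.95, 88.00 and 90.02 CPM untreated and 41.7, 33.99 and 36.2 CPM at 10 µg and 24 h, a change of -1.23 ± 0.08. At 6 h its change was 0.04 and -0.03, and neither value passed.

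The second B cyclin, Ccnb2, read 93.4, 101 and 99.2 CPM untreated, 99.02, 92.4 and 98.1 CPM at 1 µg and 6 h, 86.1, 83.1 and 86.6 CPM at 10 µg and 6 h, 83.2, 88.9 and 79.7 CPM at 1 µg and 24 h and 63.6, 56.99 and 65.99 CPM at 10 µg and 24 h. The 10 µg 6 h and 1 µg 24 h libraries overlapped, with changes of -0.20 ± 0.06 and -0.22 ± 0.06 against untreated cells. Cdc25c, a phosphatase that activates CDK1, lay at 22.1 to 23.8 CPM untreated and at 12.4 to 16.1 CPM at 10 µg and 24 h (-0.72 ± 0.10). Cdc25b, the phosphatase held to start CDK1 activation, was at 112, 102 and 108 CPM untreated, 107, 103 and 107 CPM and 97.3, 101 and 103 CPM at 6 h of 1 µg and 10 µg, and 97.8, 107 and 106 CPM and 89.1, 91.3 and 97.4 CPM at 24 h. Only the 10 µg 24 h libraries lay below all the untreated ones without overlap and passed, with a change of -0.21 ± 0.05 (adjusted p = 6.19e-04). At 1 µg and 24 h its change was -0.05 ± 0.05 (adjusted p = 0.371).

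**Figure D2:**
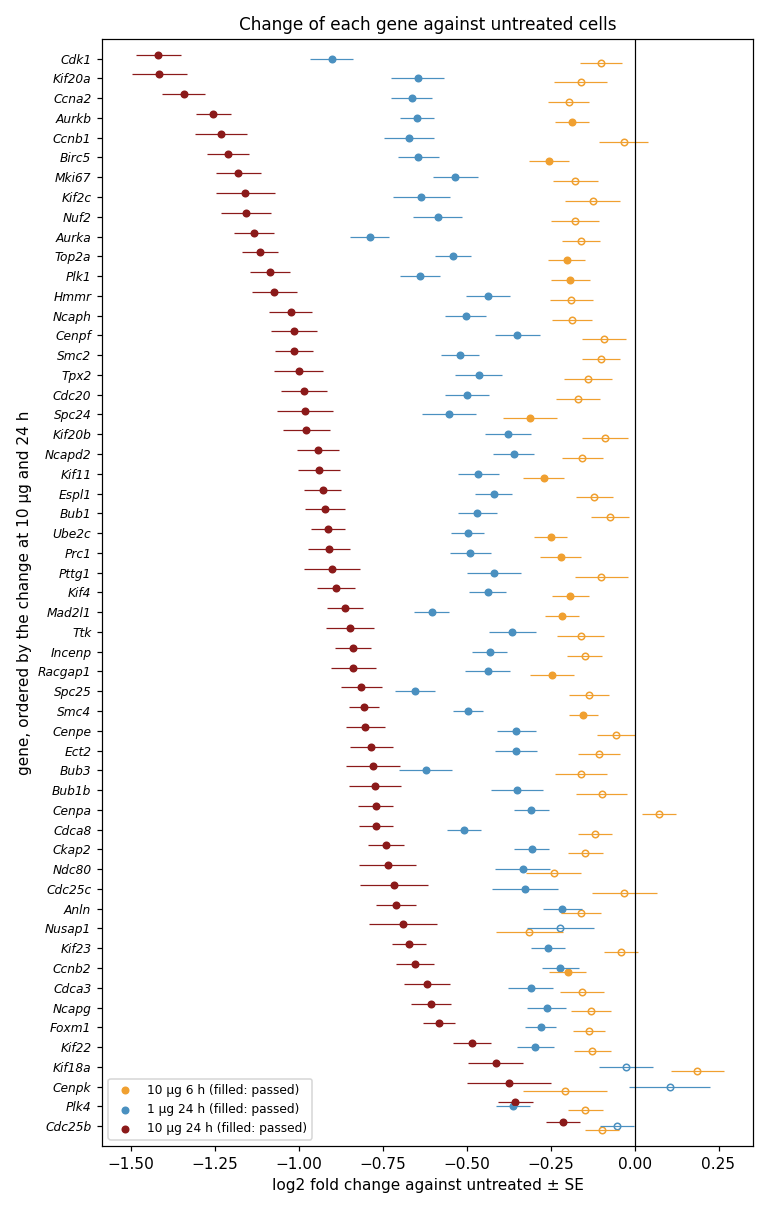
Log2 fold change against untreated cells (x axis) of each of the 55 genes (y axis, ordered by the value at 10 µg and 24 h), with bars of 1 SE and filled points where the adjusted p was under 0.05. The 10 µg 24 h points run from -1.42 for Cdk1 to -0.21 for Cdc25b, and the 10 µg 6 h points lie between -0.31 and 0.19.

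Among the mitotic kinases and checkpoint genes, all 8 fell at 24 h of either dose, where 31% (1 µg) and 34.9% (10 µg) of all genes fell. Aurka, the kinase that matures centrosomes, was at 81.1, 83.9 and 83.1 CPM untreated and 74.8, 73.5 and 78.2 CPM and 74.2, 68.2 and 79.5 CPM at 6 h, then 48.3, 50.2 and 45.1 CPM at 1 µg and 37.3, 36.2 and 39.6 CPM at 10 µg and 24 h. Its changes at 24 h were -0.79 ± 0.06 and -1.13 ± 0.06, and the 4 sets of treated libraries lay below all untreated ones, although neither 6 h value passed. Plk1, which promotes entry into mitosis and spindle assembly, read 99.7, 97.04 and 97.9 CPM untreated, 93.4, 92.2 and 94.3 CPM and 84.1, 87.2 and 86.8 CPM at 6 h, and 61.00, 68.2 and 59.8 CPM and 49.4, 41.1 and 48.2 CPM at 24 h. It changed by -0.64 and -1.09 at 24 h. Ttk, the MPS1 kinase that starts checkpoint signalling, changed by -0.36 ± 0.07 and -0.85 ± 0.07, Bub1 by -0.47 ± 0.06 and -0.92 ± 0.06, and Bub1b, which encodes the checkpoint protein BubR1, by -0.35 ± 0.08 and -0.77 ± 0.08. Mad2l1, whose product MAD2 inhibits CDC20, was at 106, 105 and 106 CPM untreated, 101, 98.6 and 108 CPM and 92.4, 90.9 and 88.99 CPM at 6 h, and 70.1, 72.3 and 65.4 CPM and 56.1, 55.7 and 62.2 CPM at 24 h. The 10 µg libraries lay below the untreated and the 1 µg ones at both times.

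Plk4 and Bub3 in this group fell at 24 h with no passing difference between the doses. Plk4, the kinase that licenses centriole duplication, was at 70.9, 70.8 and 66.1 CPM untreated, 68.7, 63.1 and 67.8 CPM and 62.4, 60.6 and 64.7 CPM at 6 h, 53.4, 55.3 and 52.99 CPM at 1 µg and 24 h and 53.1, 54.8 and 54.5 CPM at 10 µg and 24 h. The 2 sets of 24 h libraries overlapped, the change was -0.36 ± 0.05 at 1 µg and -0.36 ± 0.05 at 10 µg, and the difference between the doses was 0.01 ± 0.05 (adjusted p = 0.946). Bub3, a checkpoint subunit that also works outside mitosis, gave 130.4, 147 and 133 CPM untreated, 151, 123 and 127 CPM and 129.6, 111 and 127 CPM at 6 h, and 86.5, 96.2 and 84.01 CPM and 79.7, 75.95 and 83.8 CPM at 24 h. Its difference between the doses at 24 h was -0.16 ± 0.08 (adjusted p = 0.150), which does not show that the doses act alike.

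The 5 genes listed as anaphase regulators all fell at 24 h of either dose, where 31% (1 µg) and 34.9% (10 µg) of all genes fell. Ube2c, the ubiquitin-conjugating enzyme of the anaphase-promoting complex, was at 98.7, 95.2 and 97.1 CPM untreated, 89.3, 96.1 and 92.9 CPM at 1 µg and 6 h, 83.1, 79.9 and 81.6 CPM at 10 µg and 6 h, 72.3, 66.8 and 67.2 CPM at 1 µg and 24 h and 52.3, 49.3 and 52.9 CPM at 10 µg and 24 h. Its 10 µg 6 h, 1 µg 24 h and 10 µg 24 h libraries followed each other downwards without overlap. Its change was -0.25 ± 0.05 (adjusted p = 0.00184), -0.50 ± 0.05 (adjusted p = 3.28e-09) and -0.91 ± 0.05 (adjusted p = 2.39e-14) in these 3 groups. Cdc20, an activator of that complex, read 102, 92.5 and 96.1 CPM untreated. At 24 h it read 73.01, 73.8 and 58.8 CPM with 1 µg and 50.4, 45.6 and 50.9 CPM with 10 µg. Its changes at 24 h were -0.50 ± 0.07 and -0.98 ± 0.07. Pttg1, which encodes securin, lay at 31.1 to 33.2 CPM untreated, and at 22.3 to 26.6 CPM and 15.9 to 19.7 CPM at 24 h. Espl1, which encodes separase, lay at 118 to 131 CPM untreated, and at 88.6 to 102 CPM and 62.1 to 68.03 CPM at 24 h. Cdca3 was listed with these genes but is a trigger of mitotic entry through degradation of the kinase WEE1. It had the smallest fall of the 5 at 10 µg and 24 h, -0.62 ± 0.07.

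The chromosomal passenger complex corrects faulty kinetochore attachments and later acts at the midzone. Its 4 genes fell at 24 h of either dose, where 31% (1 µg) and 34.9% (10 µg) of all genes fell. The median of the 4 was -0.58 at 1 µg and -1.02 at 10 µg. Aurkb, its kinase, was at 114, 112 and 120.5 CPM untreated, 113, 110.1 and 115 CPM and 103, 101 and 99.9 CPM at 6 h, and 72.97, 77.7 and 70.2 CPM and 49.4, 45.6 and 49.97 CPM at 24 h. The 10 µg 6 h libraries lay below all untreated ones, with a change of -0.19 ± 0.05, and the 24 h changes were -0.65 ± 0.05 and -1.25 ± 0.05 (adjusted p = 1.25e-16). Birc5, which encodes survivin, read 90.7, 103 and 91.8 CPM untreated, 91.3, 82.96 and 83.6 CPM and 80.97, 75.2 and 82.9 CPM at 6 h, and 62.1, 63.5 and 56.6 CPM and 43.5, 38.9 and 40.8 CPM at 24 h. Its changes were -0.25 ± 0.06 at 10 µg and 6 h, -0.64 ± 0.06 at 1 µg and 24 h and -1.21 ± 0.06 at 10 µg and 24 h. Incenp, the scaffold, and Cdca8, which encodes borealin, changed by -0.84 ± 0.05 and -0.77 ± 0.05 at 10 µg and 24 h.

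At the centromere and kinetochore, all 8 genes fell at 10 µg and 24 h and 7 at 1 µg and 24 h. The shares of all genes that fell there were 34.9% and 31%. Nuf2, a subunit of the NDC80 complex that grips microtubules, was at 84.9, 92.98 and 87.9 CPM untreated, 81.1, 79.8 and 81.9 CPM and 75.7, 75.8 and 83.7 CPM at 6 h, and 61.8, 61.1 and 53.9 CPM and 46.1, 37.3 and 35.6 CPM at 24 h. Its change was -1.16 ± 0.08 at 10 µg and 24 h. The other subunits of that complex changed at the same dose and time by -0.73 ± 0.08 (Ndc80), -0.98 ± 0.08 (Spc24) and -0.81 ± 0.06 (Spc25). Spc24 read 37.3, 37.8 and 34.2 CPM untreated, 39.1, 36.6 and 33.1 CPM at 1 µg and 6 h, 30.03, 29.2 and 28.8 CPM at 10 µg and 6 h, and 24.6, 27.4 and 22.5 CPM and 16.4, 18.6 and 20.3 CPM at 24 h. The 10 µg 6 h libraries lay below all untreated and 1 µg 6 h libraries, with a change of -0.31 ± 0.08 against untreated cells. Cenpf, a large protein of the outer kinetochore, went from 219, 222 and 219.7 CPM untreated to 179.9, 188 and 150.4 CPM at 1 µg and 24 h and 121, 98.9 and 107 CPM at 10 µg and 24 h, a change of -1.02 ± 0.07. Cenpe, a kinetochore motor, changed by -0.80.

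The centromere genes Cenpa and Cenpk were at or above the untreated mean in some treated groups. Cenpa, the centromeric histone H3 variant, was at 118, 115 and 111 CPM untreated, 117, 115 and 124 CPM and 122, 120.5 and 119.7 CPM at 6 h, and 92.4, 98.2 and 87.5 CPM and 71.5, 64.6 and 65.6 CPM at 24 h. At 6 h its changes were 0.05 ± 0.05 and 0.07 ± 0.05, neither of which passed, and at 24 h it changed by -0.31 ± 0.05 and -0.77 ± 0.05. Cenpk, a subunit of the constitutive centromere network, read 10.9, 9.99 and 9.94 CPM untreated, 9.23, 10.8 and 10.3 CPM and 9.27, 9.49 and 7.92 CPM at 6 h, 12.2, 11.1 and 9.75 CPM at 1 µg and 24 h and 9.49, 7.56 and 6.70 CPM at 10 µg and 24 h. The 1 µg 24 h libraries overlapped the untreated ones, with a change of 0.10 ± 0.12 (adjusted p = 0.466). At 10 µg and 24 h it changed by -0.37 (adjusted p = 0.0105), and the call was lost without 10 µg 24 h replicate 3 (adjusted p = 0.0816) and with scaling by library totals alone (adjusted p = 0.0538).

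**Figure D3:**
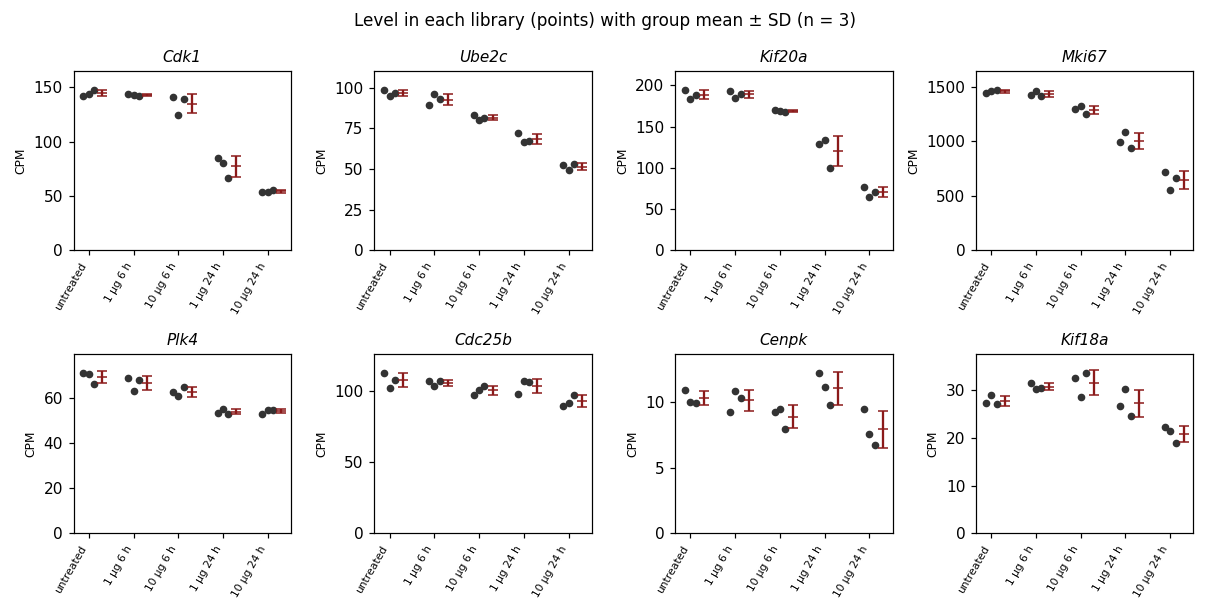
CPM (y axis, from 0) of 8 genes in each library (points, 3 per group) with the group mean ± SD in red beside them. The 24 h libraries of Plk4 at either dose lie between 53.0 and 55.3 CPM, while the Cdk1, Ube2c, Kif20a and Mki67 libraries are lowest at 10 µg and 24 h.

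All 8 mitotic kinesins fell at 10 µg and 24 h and 7 at 1 µg and 24 h, where 34.9% and 31% of all genes fell. Kif20a, the MKLP2 motor that brings the passenger complex to the midzone, was at 195, 184 and 188 CPM untreated, 193, 184 and 190.2 CPM and 170.0, 168 and 168 CPM at 6 h, and 129, 134 and 99.5 CPM and 76.4, 65.01 and 70.8 CPM at 24 h. Its change was -0.65 ± 0.08 at 1 µg and 24 h and -1.42 ± 0.08 at 10 µg and 24 h (adjusted p = 3.06e-11), a level 62.5% lower. Kif11, the Eg5 motor that separates spindle poles, gave 159, 187 and 173 CPM untreated, 164, 161 and 161 CPM and 142, 142 and 146 CPM at 6 h, and 119, 139 and 116 CPM and 94.8, 85.7 and 89.6 CPM at 24 h. The 10 µg libraries of either time lay below all untreated ones, with changes of -0.27 ± 0.06 and -0.94 ± 0.06. Kif2c, the microtubule depolymerase MCAK, changed by -0.63 ± 0.08 and -1.16 ± 0.09 at 24 h, Kif4, a chromokinesin, by -0.44 ± 0.05 and -0.89 ± 0.06, and Kif20b by -0.38 ± 0.07 and -0.98 ± 0.07. Kif23, the motor of centralspindlin, changed by -0.26 ± 0.05 and -0.67 ± 0.05, and the chromokinesin Kif22 by -0.30 ± 0.06 and -0.48 ± 0.06.

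Kif18a, a motor that dampens chromosome oscillation, was higher than in untreated cells at 6 h without passing the test. It read 27.2, 28.9 and 27.1 CPM untreated, 31.5, 30.3 and 30.4 CPM at 1 µg and 6 h, 32.6, 28.6 and 33.6 CPM at 10 µg and 6 h, 26.8, 30.3 and 24.6 CPM at 1 µg and 24 h and 22.2, 21.4 and 18.9 CPM at 10 µg and 24 h. All 1 µg 6 h libraries lay above the untreated ones, and 1 of the 10 µg 6 h libraries overlapped them. The changes were 0.15 ± 0.08 (adjusted p = 1.00) and 0.19 ± 0.08 (adjusted p = 0.192) at 6 h, -0.03 ± 0.08 at 1 µg and 24 h (adjusted p = 0.791) and -0.41 ± 0.08 at 10 µg and 24 h (adjusted p = 7.94e-05).

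The spindle and midzone proteins fell in 5 of 5 cases at 10 µg and 24 h and in 4 of 5 at 1 µg and 24 h. The shares of all genes that fell there were 34.9% and 31%. Hmmr, a spindle-associated hyaluronan receptor, was at 131, 128 and 136 CPM untreated, 127, 125 and 126 CPM and 115, 115 and 116 CPM at 6 h, and 104, 102 and 86.03 CPM and 68.7, 55.2 and 63.6 CPM at 24 h, the last a change of -1.07 ± 0.07. Tpx2, the activator of Aurora A on the spindle, went from 178, 192 and 179 CPM to 132, 142 and 124 CPM and 106, 82.7 and 85.4 CPM at 24 h. Prc1, which bundles midzone microtubules, went from 144, 149.9 and 144 CPM to 126, 122 and 128 CPM at 10 µg and 6 h and 81.9, 71.3 and 79.5 CPM at 10 µg and 24 h. Ckap2 changed by -0.31 and -0.74 at 24 h. Nusap1, a microtubule-binding spindle protein, had the widest untreated spread of this group, 75.9, 101 and 75.7 CPM. At 1 µg and 24 h it read 69.8, 77.1 and 69.9 CPM and overlapped them (-0.22 ± 0.10, adjusted p = 0.0652), and at 10 µg and 24 h it read 58.9, 47.9 and 49.9 CPM (-0.69 ± 0.10).

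Condensin, which compacts chromosomes, and topoisomerase II alpha, which untangles them, fell in 6 of 6 cases at 24 h of either dose. Of all genes, 31% fell at 24 h of 1 µg and 34.9% at 24 h of 10 µg. Top2a was at 663, 679 and 670.4 CPM untreated, 676, 647 and 650.1 CPM and 595, 569 and 585 CPM at 6 h, and 463, 500.0 and 420.4 CPM and 319, 292 and 318 CPM at 24 h. The 10 µg 6 h libraries already lay below all untreated ones (-0.20 ± 0.05), and the 24 h changes were -0.54 ± 0.05 and -1.12 ± 0.05 (adjusted p = 2.82e-15). The condensin core Smc2 and Smc4 changed by -1.01 ± 0.06 and -0.81 ± 0.04 at 10 µg and 24 h. The condensin I subunits Ncaph, Ncapd2 and Ncapg changed by -1.02 ± 0.06, -0.94 ± 0.06 and -0.61 ± 0.06. Smc4, with the smallest SE of these, read 294, 302 and 291 CPM untreated, 268, 267 and 264 CPM at 10 µg and 6 h, 218, 210.0 and 201 CPM at 1 µg and 24 h and 173, 165 and 170.2 CPM at 10 µg and 24 h.

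The 3 cytokinesis genes all fell at 24 h of either dose, where 31% (1 µg) and 34.9% (10 µg) of all genes fell. Racgap1, the centralspindlin partner of Kif23, was at 147, 153 and 151 CPM untreated, 148, 153 and 145 CPM and 127, 124 and 129 CPM at 6 h, and 100.5, 128 and 105 CPM and 88.4, 76.8 and 87.1 CPM at 24 h. Its 10 µg 6 h libraries lay below all untreated ones and overlapped the 1 µg 24 h ones. Ect2, the RhoA activator of the cleavage furrow, changed by -0.35 ± 0.06 and -0.78 ± 0.06 at 24 h, and Anln, which encodes the ring scaffold anillin, by -0.22 ± 0.06 and -0.71 ± 0.06. With scaling by library totals alone, Anln, Ccnb2 and Cdc25c lost their calls at 1 µg and 24 h (adjusted p = 0.0969, 0.0577 and 0.0556).

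Mki67, which encodes Ki-67, the protein that coats mitotic chromosomes, was at 1438, 1457 and 1468 CPM untreated, 1425, 1458 and 1409 CPM and 1290.4, 1321 and 1250.4 CPM at 6 h, and 989, 1084 and 939 CPM and 715, 553 and 659 CPM at 24 h. All 10 µg 6 h libraries were below the untreated ones, but the change of -0.18 ± 0.07 did not pass (adjusted p = 0.140). At 24 h it changed by -0.53 and -1.18. Foxm1, the transcription factor of G2 and M genes, read 218, 223 and 224 CPM untreated, 182, 191 and 175 CPM at 1 µg and 24 h and 153, 138 and 153 CPM at 10 µg and 24 h, with changes of -0.28 ± 0.05 and -0.58 ± 0.05.

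The 13 genes that fell at 10 µg and 6 h had small changes, from -0.31 for Spc24 to -0.15 for Smc4. The log2 fold change was below 0 for 53 of the 55 genes, as for 50.8% of all genes. Most of these calls were lost when a library was left out, while the changes stayed close in size. Leaving out an untreated library (replicate 1, 2 or 3) gave a count of 5, 3 or 6, and leaving out a 10 µg 6 h library (replicate 1, 2 or 3) gave 6, 3 or 4. Calls over all genes dropped too, to between 3.11% and 3.75% in either direction in these fits, in place of 5.95%. With only the compared groups fitted the count of the 55 was 28, where 12.5% of all genes passed in either direction, in place of 5.95%. Ube2c kept its call in all 6 fits that left out a library. Kif11 lost it without untreated replicate 2 (adjusted p = 0.0719) and Mad2l1 without 10 µg 6 h replicate 3 (adjusted p = 0.0613). Birc5 lost it without untreated replicate 2 or 10 µg 6 h replicate 2 (adjusted p = 0.0956 and 0.0850). Spc24 lost it without untreated replicate 1 or 2 (0.0791 and 0.0859, adjusted p) and 10 µg 6 h replicate 2 or 3 (0.0710 and 0.0767). Aurkb lost it without untreated replicate 1 or 3 (adjusted p = 0.0543 and 0.134) and 10 µg 6 h replicate 2 or 3 (0.0829 and 0.0942).

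For the other 7 genes of the 13 most of these fits ended the call. The change of Plk1 in them was -0.20 to -0.18, that of Top2a -0.22 to -0.19 and that of Racgap1 -0.26 to -0.23. Ccnb2 kept it only without untreated replicate 1, and its adjusted p without each of the other 5 libraries ran from 0.0710 to 0.134. Plk1, Kif4, Prc1, Smc4, Top2a and Racgap1 lost it without any 1 of the 6 libraries. Their adjusted p ran over 0.101 to 0.167, 0.0680 to 0.122, 0.0665 to 0.140, 0.0698 to 0.132, 0.0519 to 0.114 and 0.0660 to 0.120, in that order.

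Between the doses at 6 h, 2 of the 55 genes were lower at 10 µg and 0 higher, where 0.492% of all genes were lower and 1.85% higher. They were Spc24 (-0.30 ± 0.08, adjusted p = 0.0422) and Ube2c (-0.19 ± 0.05, adjusted p = 0.0414). Neither call held throughout: Ube2c lost it without any 1 of the 6 libraries (adjusted p = 0.0612 to 0.216). Spc24 kept it without 1 µg 6 h replicate 3, and lost it when 1 µg 6 h replicate 1 or 2 was left out (adjusted p = 0.260 and 0.142), or any 10 µg 6 h library (0.0942, 0.148 and 0.157 for replicates 1, 2 and 3). The 10 µg libraries lay below all 1 µg libraries for 31 of the 55, where 11.4% of all genes did so. With only these 6 libraries fitted 19 of the 55 passed, as did 8.82% of all genes in either direction. With DESeq2 5 of the 55 passed, as did 2.84% of all genes. The median difference of the 55 was -0.11, beside 0.00 over all genes.

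Between the doses at 24 h, 52 of the 55 genes were lower at 10 µg, where 19.3% of all genes were, and 0 were higher, against 16% of all genes. The 10 µg libraries lay below all 1 µg libraries for 53 of the 55, where 21.9% of all genes did so. The median difference was -0.45, beside -0.01 over all genes. The largest was that of Kif20a (-0.77 ± 0.08), followed by Ccna2 (-0.68 ± 0.06) and Cenpf (-0.67 ± 0.07). Plk4, Bub3 and Spc25 did not pass, and the value of Spc25 was -0.16 ± 0.06 (adjusted p = 0.0501). Its 1 µg libraries were at 38.2, 37.4 and 34.6 CPM and its 10 µg libraries at 31.7, 33.1 and 33.8 CPM, without overlap. The calls of Cdc25b and Kif22 were near the threshold. That of Cdc25b (-0.16 ± 0.05) was lost without 10 µg 24 h replicate 1 (adjusted p = 0.0562) or 1 µg 24 h replicate 2 (0.0664), and that of Kif22 (-0.19 ± 0.06) without 10 µg 24 h replicate 3 (0.0532) or 1 µg 24 h replicate 2 (0.0575). In these fits the changes were -0.14 for Cdc25b and -0.17 and -0.16 for Kif22. Both calls were also lost with only the compared groups fitted (adjusted p = 0.0851 and 0.0726).

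The dose effect at 24 h less that at 6 h, the interaction of dose and time, was below 0 for 54 of the 55 genes and passed for 40, all lower, where 11% of all genes passed in that direction and 7.58% in the other. The median interaction of the 55 was -0.36, beside -0.02 over all genes. Kif20a had the largest (-0.61 ± 0.11, adjusted p = 0.00116), followed by Cenpf (-0.57 ± 0.10) and Nuf2 (-0.52 ± 0.11). The interaction passed for 7 of 8 kinesins, 4 of 5 genes listed as anaphase regulators and 3 of 4 passenger complex genes. It also passed for 5 of 8 kinase and checkpoint genes and 4 of 8 centromere and kinetochore genes. Plk4 alone had a value above 0, 0.09 ± 0.07, which did not pass (adjusted p = 0.430). Of the 40 calls, 34 held without each of the 12 libraries in turn.

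**Figure D4:**
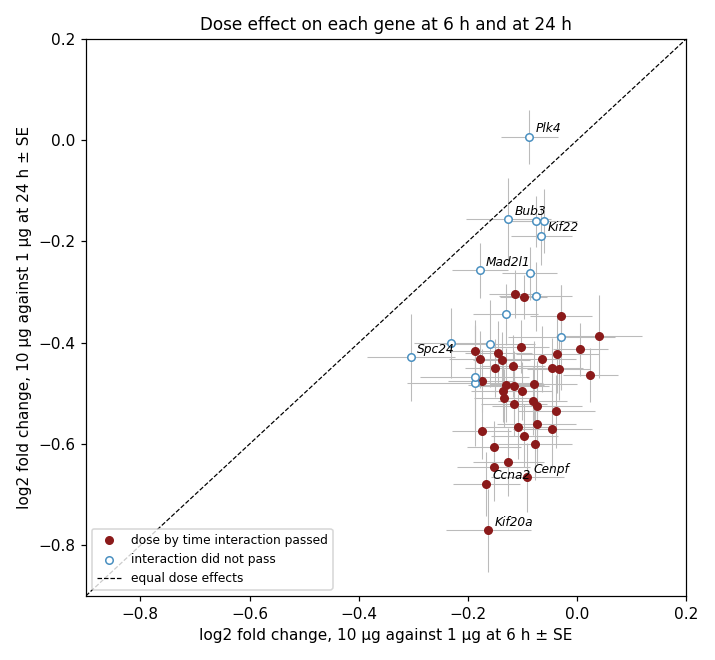
Log2 fold change of 10 µg against 1 µg at 6 h (x axis) and at 24 h (y axis) for each of the 55 genes, with bars of 1 SE; filled points passed the interaction test and the dashed line marks equal dose effects. All points but Plk4 lie below the line, and Kif20a is lowest at -0.77 on the 24 h axis.

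The comparison of 24 h with 6 h at the same dose does not use the untreated cells. No untreated library is labelled 6 h or 24 h. Time with LCCL and time in culture therefore cannot be told apart, in this comparison or in those with untreated cells. With 1 µg, 51 of the 55 genes were lower at 24 h and 0 higher, where 30.5% of all genes were lower and 30.3% higher. With 10 µg, 54 were lower and 0 higher, where 35.2% of all genes were lower and 34% higher. The medians were -0.40 and -0.69. Cdk1 had the lowest value of the 55 at either dose, -0.88 ± 0.06 and -1.32 ± 0.07. Cenpk was the gene that did not pass at 10 µg (-0.17 ± 0.13), and Cdc25b, Cenpk, Kif18a and Nusap1 did not pass at 1 µg. At 1 µg, Cdc25c lost its call without 1 µg 24 h replicate 3 or 1 µg 6 h replicate 1 (adjusted p = 0.0522 and 0.0620), and Ndc80 without 1 µg 6 h replicate 1 (0.0820). At 10 µg, Cdc25b (-0.12 ± 0.05) lost its call without 10 µg 24 h replicates 1 or 2 (adjusted p = 0.177 and 0.103) or 10 µg 6 h replicates 2 or 3 (0.0892 and 0.166). It also lost it with DESeq2 (0.0784), RLE size factors (0.0671) and only the compared groups fitted (0.0560), and with library totals alone its change was -0.016 (adjusted p = 0.785). That scaling also ended the call of Plk4 at 10 µg (adjusted p = 0.0614). At 1 µg it left 45 of the 51 calls, without Anln, Ccnb2, Cdc25c, Cdca3, Kif23 and Ndc80 (adjusted p = 0.193, 0.119, 0.0604, 0.0971, 0.0576 and 0.118).

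The same pathways hold 113 further genes, all of which passed the filter. At 10 µg and 6 h, 7 of them fell and 0 rose. After 24 h of 1 µg, 87 fell and 4 rose, and after 24 h of 10 µg 97 fell and 3 rose, with medians of -0.34 and -0.67. Over all genes 1.86% fell at 10 µg and 6 h, 31% fell and 30.8% rose at 1 µg and 24 h, and 34.9% fell and 35.4% rose at 10 µg and 24 h. Among 15 further kinases and regulators, all fell at 10 µg and 24 h, among them Cdc25a, the G1/S and mitotic phosphatase (-1.67 ± 0.06), Pbk (-1.26 ± 0.07), the checkpoint ATPase Trip13 (-1.25 ± 0.07) and Wee1, the kinase that inhibits CDK1 (-1.09 ± 0.06). All 30 further kinetochore and centromere genes fell too, among them the scaffold Knl1 (-1.14 ± 0.07) and Nsl1 (-0.89 ± 0.06). Of 24 further spindle, kinesin and cytokinesis genes, 22 fell, among them Tacc3 (-1.26 ± 0.07) and Cep55 (-1.03 ± 0.07), and 1 rose. That gene, Psrc1, rose at 1 µg and 24 h, from 24.9, 22.9 and 24.8 CPM untreated to 38.6, 36.97 and 34.9 CPM (0.61 ± 0.07), and was at 26.4, 26.8 and 27.7 CPM at 10 µg and 24 h (0.16 ± 0.07).

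The core anaphase-promoting complex was listed with its activator Fzr1 and its enzyme Ube2s, and apart from Cdc20 and Ube2c. Of these 16 genes, 7 fell and 1 rose at 10 µg and 24 h, and the median was -0.07. With 34.9% of all genes lower there, a count of 7 of 16 is near the background and is not a result about this complex. The falls with the smallest p were those of Ube2s, its chain-elongating enzyme (-1.11 ± 0.09), Anapc1 (-0.45 ± 0.05), Cdc27 (-0.38 ± 0.05) and Cdc23 (-0.39 ± 0.06). The riser, Anapc15 (0.43 ± 0.11), was named after its value was seen. Of 13 cohesin and condensin II genes, 11 fell, among them the condensin II subunit Ncapg2 (-1.07 ± 0.05), and 1 rose. Of 15 genes listed under DREAM and MuvB, 12 fell and 0 rose. That list also holds Nfya, Nfyb and Nfyc, subunits of the CCAAT-binding factor NF-Y, which are not part of these complexes. Mybl2, which encodes the B-MYB that joins MuvB for activation, went from 83.00, 85.2 and 85.9 CPM untreated to 47.2, 41.2 and 33.7 CPM and 20.9, 16.3 and 18.4 CPM at 24 h of 1 µg and 10 µg, the last a change of -2.19 ± 0.10. Rbl1, which encodes the repressor p107, changed by -1.13.

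Some of the 55 genes share bases with a neighbour in the GENCODE M21 annotation. Exons of 11 overlap those of another gene in the count table: 10 on the opposite strand (Ccna2, Cdc20, Cdc25b, Kif20a, Kif4, Ncapg, Nusap1, Plk1, Prc1 and Ube2c) and 1, Foxm1, on the same strand. Kif20a shares 1271 bases with Cdc23. Whether the counting used strand is not given in the sources used here, so counts of these 11 genes are uncertain to that extent.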

How the data were processed

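Total RNA of RAW264.7 cells was made into TruSeq stranded mRNA libraries, per the labels' protocols. The authors deposited whole-number counts per gene symbol, and GRCm39 is named per the submitters' processing notes. No source used here gives the aligner, the counter, the annotation or the strand setting. Counts were filtered with edgeR's filterByExpr, which kept 12401 genes with 99.97% of counts, and TMM scaling was applied. A single model of all 15 libraries was fitted by edgeR 4.0.16 (glmQLFit, glmQLFTest, two-sided) in R 4.3.3, with 10 residual degrees of freedom and a common coefficient of variation of 5.68%. P-values were adjusted by Benjamini-Hochberg over all genes tested. On counts simulated for 10 µg against untreated at 6 h (12225 genes, 200 of them changed), 26% of changes of 0.2 log2 and 66% of 0.3 log2 were called. In the data 738 genes were called in that comparison, so these shares need not hold there. Alternatives were other size factors, no filter, a replicate block, only the compared groups, DESeq2 1.42.0 and each library left out. The 55 genes and the other lists were chosen with earlier results of these data known. Every one of the 55 could be named, and all met the rule for printing every library (called, and holding without each library in turn, in some comparison). Every library is plotted for all 55 and printed for those the results turn on, with ranges or changes for the rest. Of the other lists, up to 4 called genes with the smallest p per comparison were named. Libraries of a group differed by more than counting noise, and none were merged as 1 library deposited again.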

Additional observations from a re-analysis of the deposited data

Results flagged for a closer look

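The effect of dose differed between 6 h and 24 h for 40 of the 55 genes. This was the interaction term of edgeR's quasi-likelihood test at an adjusted p under 0.05. Over all genes, 11% passed as lower and 7.58% as higher. The values given for the 40 are log2 fold changes of 10 µg against 1 µg at 24 h less those at 6 h. All are below 0. Among CDK1 and the cyclins they were -0.43 for Cdk1, -0.49 for Ccnb1, -0.25 for Ccnb2 and -0.51 for Ccna2. Among kinases and checkpoint genes they were -0.32 for Aurka, -0.33 for Plk1, -0.35 for Ttk, -0.42 for Bub1 and -0.39 for Bub1b. Among anaphase regulators they were -0.37 for Cdc20, -0.23 for Ube2c, -0.40 for Pttg1 and -0.37 for Espl1.

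In the passenger complex the values were -0.45 for Aurkb, -0.46 for Birc5 and -0.30 for Incenp. At the centromere and kinetochore they were -0.49 for Cenpa, -0.40 for Cenpe, -0.57 for Cenpf and -0.52 for Nuf2. The kinesins gave -0.30 for Kif11, -0.42 for Kif23, -0.61 for Kif20a, -0.52 for Kif20b, -0.45 for Kif2c, -0.30 for Kif4 and -0.43 for Kif18a. The spindle genes gave -0.50 for Tpx2, -0.28 for Prc1, -0.51 for Hmmr and -0.30 for Ckap2. Condensin and topoisomerase gave -0.49 for Ncapd2, -0.41 for Ncaph, -0.39 for Smc2, -0.21 for Smc4 and -0.40 for Top2a. The rest were -0.36 for Anln, -0.37 for Ect2, -0.49 for Mki67 and -0.19 for Foxm1.

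For 6 of the 40 the call was lost without some libraries. That of Ccnb2 was lost without 10 µg 24 h replicate 2, 10 µg 6 h replicates 1 or 3, 1 µg 24 h replicate 2 or 1 µg 6 h replicate 2 (adjusted p = 0.0895, 0.0516, 0.0542, 0.0810 and 0.0787). Foxm1 lost it without 10 µg 24 h replicate 2, 10 µg 6 h replicates 1, 2 or 3, 1 µg 24 h replicate 2 or 1 µg 6 h replicates 1, 2 or 3 (adjusted p = 0.148, 0.0742, 0.0796, 0.0861, 0.127, 0.0984, 0.0975 and 0.0668). It also lost it with RLE size factors, no filter, the replicate block and only the compared groups fitted (adjusted p = 0.0548, 0.0629, 0.0664 and 0.0651). Prc1 lost it without 10 µg 24 h replicate 2, 10 µg 6 h replicates 1 or 3, 1 µg 24 h replicate 2 or 1 µg 6 h replicates 1 or 3 (adjusted p = 0.0950, 0.0560, 0.0638, 0.1085, 0.0507 and 0.0744). Ube2c lost it without 10 µg 24 h replicate 2, 10 µg 6 h replicate 1, 1 µg 24 h replicate 1 or 1 µg 6 h replicate 1 (adjusted p = 0.0646, 0.0508, 0.0607 and 0.0661). Kif11 and Pttg1 lost it without 10 µg 24 h replicate 2 (adjusted p = 0.0565 and 0.0537) or 1 µg 24 h replicate 2 (0.0662 and 0.0590).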

How the results depend on the processing

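No direction of a called gene reversed under any alternative run. The number of the 55 genes called at 10 µg against untreated at 6 h was 13, 28 with only the compared groups fitted and 3 to 6 when each library was left out. For 10 µg against 1 µg at 6 h it was 2, and became 4 with scaling by library totals alone, 1 with no filter on low counts, 19 with only the compared groups fitted, 5 with DESeq2 and 0 to 1 when each library was left out. In the other 7 comparisons it stayed within 1.5 times under each alternative. Over all genes, fitting only the compared groups moved the calls at 10 µg and 6 h from 738 to 1487 and those between the doses at 6 h from 291 to 1044, and leaving out each library gave 390 to 469 and 111 to 163. At 10 µg and 6 h, Plk1 lost its call with the replicate block (adjusted p = 0.0654), and Kif4 and Smc4 with no filter (0.0563 and 0.0690). With no filter, 1 gene was called at 1 µg and 6 h in place of 0.

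With the replicate number as a block, 1 of the 55 genes was called between the doses at 6 h in place of 2, and 12 in place of 13 at 10 µg and 6 h, and Foxm1 lost its interaction call (adjusted p = 0.0664). Deviations of same-numbered libraries of different groups had correlations from -0.08 to 0.096 (30 pairs, 0 of them over 0.1), so the numbers were not taken to pair the samples. That 10 of 15 libraries correlated best with their own number is a hint from the data, not the design.

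The TMM factors were 0.965 to 0.980 in untreated and 6 h libraries and 1.02 to 1.06 in 24 h libraries. Scaling by library totals alone moved the median of all genes by 0.10 log2 at 1 µg and 24 h and by 0.089 at 10 µg and 24 h against untreated cells, and the called genes split 4923 higher to 2864 lower and 5112 to 3600, in place of 3817 to 3841 and 4388 to 4329. The split for 24 h against 6 h became 4908 to 2794 at 1 µg and 5132 to 3544 at 10 µg, in place of 3756 to 3777 and 4218 to 4361. Under that scaling the medians of the 55 genes were -0.34 and -0.80 at 24 h of 1 µg and 10 µg against untreated cells.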

Other observations

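Genes of the phases before mitosis were also lower at 24 h. All 40 DNA replication and S phase genes fell at 24 h of either dose, with medians of -0.73 at 1 µg and -1.33 at 10 µg, and 3 fell at 10 µg and 6 h. Of all genes, 31% fell at 1 µg and 24 h, 34.9% at 10 µg and 24 h and 1.86% at 10 µg and 6 h. At 10 µg and 24 h they included Cdc6, which loads the replicative helicase (-2.27 ± 0.08), the helicase subunit Mcm3 (-1.79 ± 0.06), the ribonucleotide reductase subunit Rrm1 (-1.75 ± 0.06) and the single-strand binding subunit Rpa1 (-1.44 ± 0.05). Rpa1 was among the 3 that had fallen at 10 µg and 6 h (-0.22 ± 0.05).

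A further list held G1 cyclins, their kinases, CDK inhibitors, E2F factors, Rb1 and Myc. Of the 17 tested, 12 fell at 10 µg and 24 h and 3 rose, where 34.9% of all genes fell and 35.4% rose. Ccnd1, which encodes cyclin D1, changed by -0.73 ± 0.06 at 1 µg and -1.47 ± 0.06 at 10 µg. Ccne2, a cyclin E that drives entry into S phase, was at 58.8, 60.8 and 58.2 CPM untreated, 27.4, 22.02 and 17.04 CPM at 1 µg and 24 h and 7.76, 5.09 and 5.92 CPM at 10 µg and 24 h. Cdkn1b, which encodes the CDK inhibitor p27, went from 52.4, 51.7 and 49.6 CPM untreated to 73.5, 75.3 and 72.5 CPM at 1 µg and 24 h (0.53 ± 0.05) and 69.7, 76.5 and 68.3 CPM at 10 µg and 24 h. Of this list, 3 fell at 10 µg and 6 h, where 1.86% of all genes fell. Among them was Cdkn1a, which encodes the CDK inhibitor p21 (-0.21 ± 0.06). Its call was lost without any 1 of the 6 libraries (adjusted p = 0.0594 to 0.133 by edgeR).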
